A study of Rattus norvegicus with 6 samples.

Results

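The genes described here encode the enzymes that write and remove methyl and acetyl marks on histones and methyl marks on DNA: the histone deacetylases, sirtuins, lysine acetyltransferases, lysine methyltransferases of the KMT and EZH names, lysine demethylases, DNA methyltransferases and TET dioxygenases. They were chosen by gene symbol alone, although earlier results of these data were known by then. The symbols matched 61 rows of the 17525 in the deposited table. The cells were primary cultures of ovarian granulosa cells, which line the follicle and nurse the egg, from SD rats (Rattus norvegicus) that were 21 days old and had received 60 IU of PMSG, a gonadotropin that makes follicles grow, 48 h before their ovaries were taken. The titles name a group ATR and a group Control, and the series' title concerns long exposure to the herbicide atrazine, although no label spells out ATR, a dose or a duration. The 3 libraries with columns analysed here, ATR 1, ATR 2 and ATR 3, are all of the ATR group. Libraries of the Control group are not analysed here, and the values below therefore describe ATR cells without measuring a response to exposure.

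DNA methyltransferases place a methyl group on cytosines next to guanines (CpG), with Dnmt1 copying the pattern after replication and the Dnmt3 enzymes setting it anew. TET enzymes oxidise methylcytosine and so start its removal. Acetyltransferases open chromatin and deacetylases close it, while methyl marks on histone lysines stand for active promoters (H3K4), for silenced genes (H3K27) or for compact chromatin (H4K20), according to the residue. In granulosa cells such enzymes take part in switching follicle genes on and off as the follicle matures.

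Gene-assigned reads numbered 19020494 in ATR 1, 18677212 in ATR 2 and 19170552 in ATR 3. Granulosa markers were present in part: 6 of 8 reached 1 TPM (a transcript level scaled for transcript length and library depth), among them Foxl2, Inha and Nr5a1, while Amh and Cyp19a1 stayed below 0.15 TPM and Fshr stood at 5.80 ± 1.39 TPM. Of the markers of other cells, 5 of 6 for surface epithelium, 6 of 6 for stroma and 5 of 5 for smooth muscle reached 1 TPM. So did 4 of 5 for leukocytes, though not Ptprc (0.85 TPM), and 1 of 4 for endothelium. Over all genes the share was 71.4%. The contractile gene Tagln reached 10891 TPM. Of the surface epithelium markers, Upk3b stood at 1403 TPM, above every granulosa marker listed except Gja1 (1906 TPM), while Krt19 stood at 0.137 TPM. None of the 4 oocyte markers found reached 1 TPM, nor did either theca marker. Which cells these transcripts came from was not tested. Levels are those of RNA pooled over all cells of a library, in which fewer cells of a type and less RNA per cell cannot be told apart. Values are means ± SD over 3 libraries unless stated otherwise, and the labels do not state whether the libraries are separate animals or cultures. All p-values then measure the spread between these libraries, which may be technical.

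Some rows do not stand for the gene their symbol names, and this changes the reading of 2 enzymes. The row called Kdm6a (identifier 100310845) held 0, 1 and 2.01 estimated reads in ATR 1, ATR 2 and ATR 3. RefSeq gives that identifier to Uty, the Y-linked relative of Kdm6a, and gives the name Kdm6a to identifier 103689969. The deposited table lists the latter as NEWGENE_1565481, at 17.7, 16.0 and 15.1 TPM from 993, 905 and 872.99 reads. Kdm6a, which removes H3K27 methylation, was therefore well expressed, at 16.3 ± 1.29 TPM.

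Hdac6 was counted in 2 equal portions. Its row held 1759.5, 1556.5 and 1652.5 reads, and the row LOC108348065, which RefSeq names Hdac6, held the same values in every library. Summed, the gene had 3519, 3113 and 3305 reads and 98.4, 87.3 and 90.4 TPM, against 49.2, 43.7 and 45.2 TPM in the row under its own symbol. The summed level of 92.0 ± 5.72 TPM places Hdac6 next after Hdac1 and Hdac2 among the Hdac genes. Sharing of another form touched 4 further enzyme rows: the fractional counts of Hdac1 and its copy Hdac1l added up to the whole numbers 4302, 4247 and 4483, those of Kdm4c and LOC108348059 to 692, 616 and 686, and those of Kdm4dl2 and LOC108348070 to 13, 0 and 18. In all, 14 of the 61 rows had a count that was not whole to within 0.005 in some library, a share of 23.0% against 24.2% over all genes. Of the 61 identifiers, 60 were found in RefSeq (assembly GRCr8, used for names), and Kdm6a was the one with a different symbol there.

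Most of the enzymes were expressed at moderate levels. A mean of 1 TPM was reached by 55 of the 61 rows, against 71.4% of all genes, and 10 TPM by 44 of them, against 50.2% of all genes. At 100 TPM the picture turned, with 3 rows (Hdac1, Kmt5a and Hdac2) against 10.7% of all genes. The median level was 18.2 TPM, against 10.1 TPM over all genes and 22.2 TPM over genes at 1 TPM or more. Together the 61 rows took 0.186%, 0.180% and 0.181% of all TPM in ATR 1, ATR 2 and ATR 3.

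**Figure D1:**
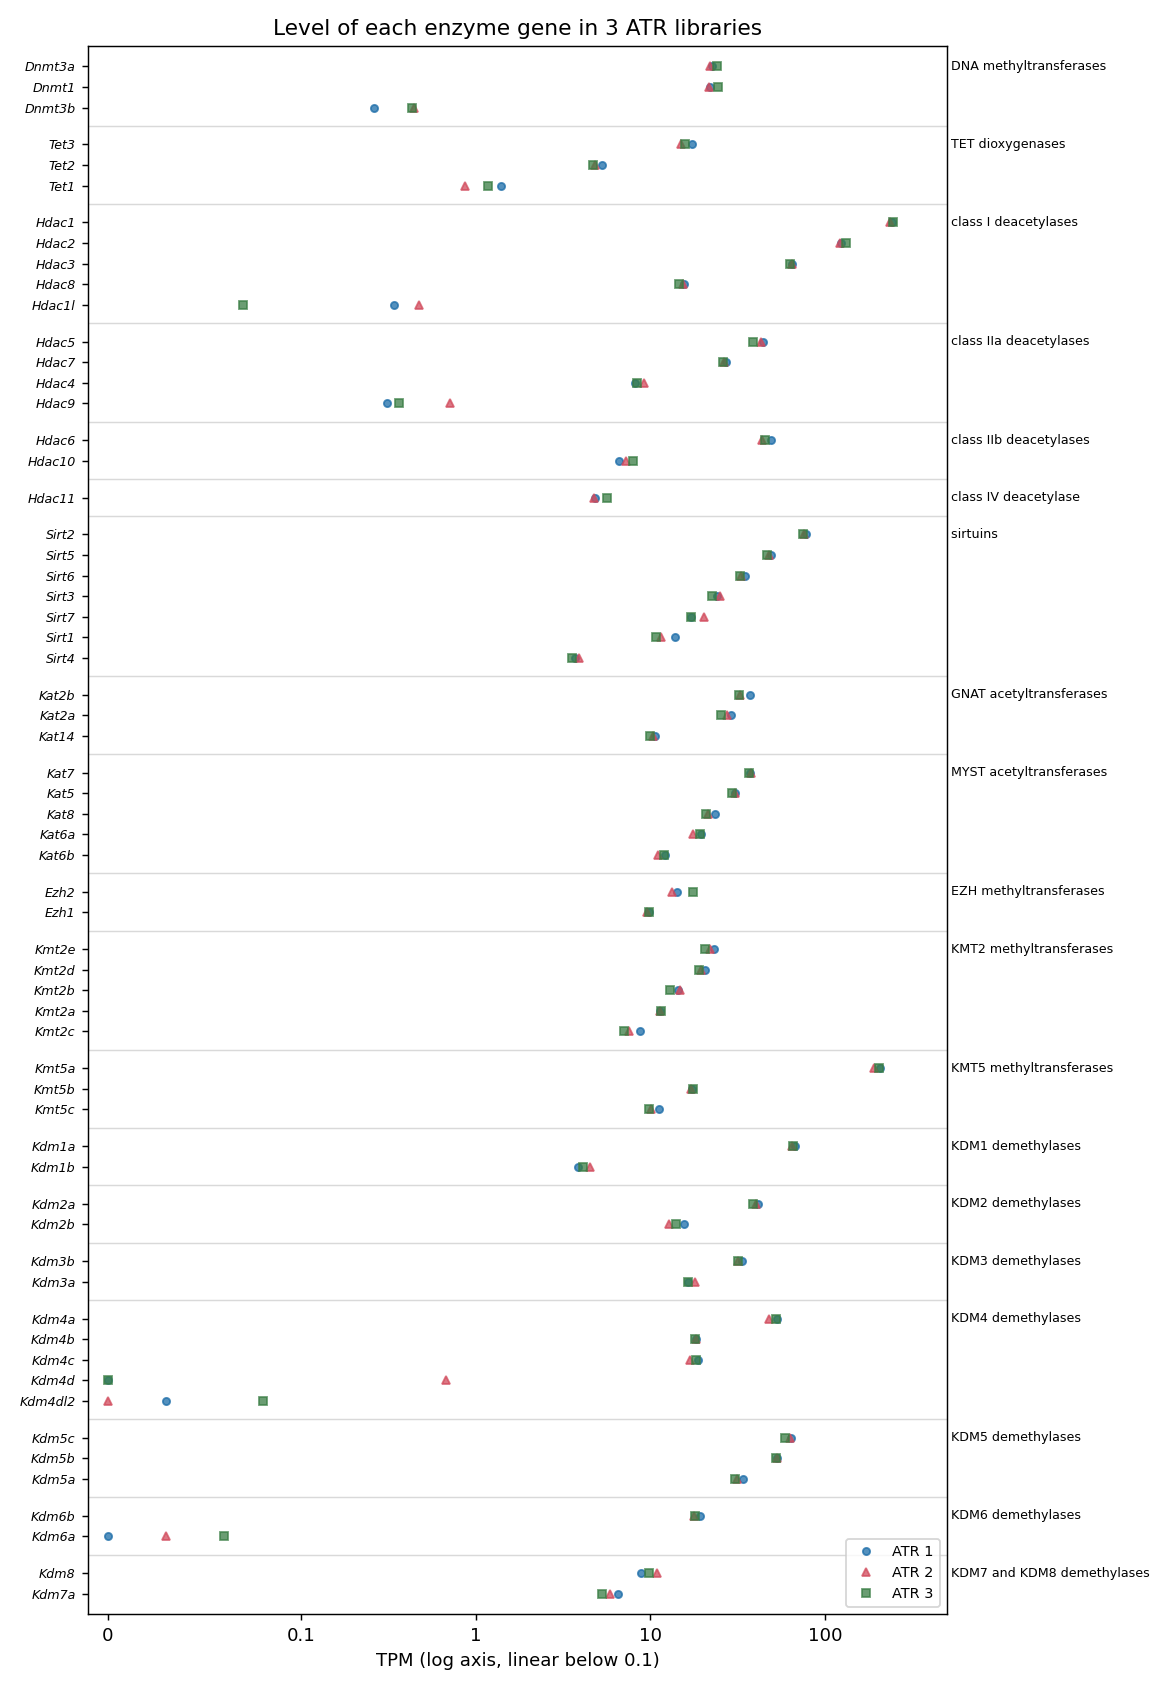
Level of each of the 61 enzyme rows in TPM (horizontal axis, logarithmic above 0.1 and linear below), with 1 point per library and rows grouped by enzyme family. Hdac1, Kmt5a and Hdac2 lie above 100 TPM in every library, most enzymes lie between 5 and 70 TPM, and the 6 rows with a mean under 1 TPM are Dnmt3b, Hdac9, Hdac1l, Kdm4d, Kdm4dl2 and the row called Kdm6a.

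The maintenance enzyme Dnmt1 and the de novo enzyme Dnmt3a stood at the same level, whereas Dnmt3b was nearly absent. Dnmt1 had 21.8, 21.8 and 24.4 TPM and Dnmt3a 22.6, 22.1 and 23.95 TPM in ATR 1, ATR 2 and ATR 3, which gives Dnmt1 to Dnmt3a ratios of 0.968, 0.986 and 1.02, each with an exact 95% interval that holds 1. Dnmt3b had 10, 17 and 17 reads, or 0.26, 0.44 and 0.43 TPM. Dnmt3a exceeded it by 86.8 times in ATR 1 (95% interval 47.1 to 181), 50.2 times in ATR 2 (31.3 to 86.4) and 55.7 times in ATR 3 (34.7 to 95.8). These intervals, like all those below, cover counting error alone.

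Of the TET genes, Tet3 had the highest transcript level in every library. Tet3 stood at 17.3, 14.9 and 15.8 TPM, Tet2 at 5.25, 4.80 and 4.70 TPM and Tet1 at 1.40, 0.86 and 1.17 TPM. The 3 genes did not overlap in any library, and Tet3 exceeded Tet2 by 3.26 ± 0.131 times and Tet1 by 14.4 ± 2.63 times. Summed, the TET genes reached 22.1 ± 1.70 TPM against 45.9 ± 2.47 TPM for the DNA methyltransferases. All 10 partners and readers of DNA methylation on the list reached 1 TPM, against 71.4% of all genes. Mbd3 led at 152 ± 1.78 TPM, followed by Mbd2 at 77.2 ± 2.67 TPM. Tdg, the glycosylase that excises oxidised methylcytosine, came next at 69.6 ± 1.06 TPM. Uhrf1, which brings Dnmt1 to freshly copied DNA, was at 14.9 ± 2.91 TPM.

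Deacetylase transcripts were concentrated in class I, of which Hdac1, Hdac2 and Hdac3 are the enzymes of the large corepressor complexes. Hdac1 had 241, 237 and 245 TPM, Hdac2 124, 122 and 131 TPM, Hdac3 64.7, 64.5 and 62.8 TPM and Hdac8 15.7, 15.3 and 14.6 TPM. The order Hdac1, Hdac2, Hdac3, Hdac8 held in every library without overlap. Hdac1 exceeded its close relative Hdac2 by 1.94 (1.85 to 2.04), 1.94 (1.84 to 2.04) and 1.86 (1.78 to 1.96) times and made up 54.1%, 53.9% and 53.98% of class I TPM. The copy Hdac1l, whose reads are tied to those of Hdac1, had at most 6.02 reads. Class I summed to 447 ± 7.41 TPM of the 583 ± 7.39 TPM of all 12 rows of the Hdac family, with Hdac6 at its deposited value.

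The class IIa enzymes, which shuttle between nucleus and cytoplasm, spanned a wide range. Hdac5 stood at 44.3, 42.9 and 38.95 TPM, Hdac7 at 27.3, 26.2 and 26.0 TPM and Hdac4 at 8.19, 9.18 and 8.42 TPM. Hdac9 had 13, 28 and 15 reads, or 0.31, 0.71 and 0.36 TPM, and was more abundant in ATR 2 than in ATR 1 by a read ratio of 2.19 (1.10 to 4.60). That difference did not pass the adjustment over all genes (chi-square test described below, adjusted p = 0.0883). Of the others, the class IIb enzyme Hdac10 stood at 7.27 ± 0.675 TPM and the class IV enzyme Hdac11 at 5.07 ± 0.514 TPM.

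The promoters of Hdac1 and Hdac9, the highest and the lowest Hdac gene once the copy Hdac1l is left aside, are shown because one is rich and the other poor in CpG, the substrate of the DNA methyltransferases. Each window runs from 250 bases before to 50 after the RefSeq start, on the strand of the gene, with CpG in capitals. The Hdac1 window (GRCr8, chr5:147165338-147165637, minus strand) holds 27 CpG and the Hdac9 window (GRCr8, chr6:57052522-57052821, minus strand) holds 2. The start that these cells used is not given by the data.
Hdac1: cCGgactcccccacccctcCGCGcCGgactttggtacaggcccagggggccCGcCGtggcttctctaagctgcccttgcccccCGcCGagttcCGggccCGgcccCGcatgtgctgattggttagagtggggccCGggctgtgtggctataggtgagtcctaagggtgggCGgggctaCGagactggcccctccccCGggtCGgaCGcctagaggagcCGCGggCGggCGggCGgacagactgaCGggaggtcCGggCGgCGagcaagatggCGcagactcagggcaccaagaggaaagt
Hdac9: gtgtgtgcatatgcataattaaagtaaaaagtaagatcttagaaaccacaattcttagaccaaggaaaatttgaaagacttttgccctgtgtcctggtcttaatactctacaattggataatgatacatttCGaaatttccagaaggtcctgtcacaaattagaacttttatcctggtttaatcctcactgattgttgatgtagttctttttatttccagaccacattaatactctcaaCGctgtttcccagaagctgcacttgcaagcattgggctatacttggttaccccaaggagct

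Across all the enzymes with a promoter entry, CpG count and level showed little relation. Of the 61 rows, 48 had a RefSeq promoter under their own identifier and gene, 7 of them with several starts, for which the most CpG-rich window was taken. Their median was 21.5 CpG, against 22 over genes of the table at 1 TPM or more, 7 over genes of the table below 1 TPM and 8 over all RefSeq genes with a promoter. Spearman's rho between CpG count and mean TPM was 0.038 over the 48 enzymes and 0.41 over 13242 genes of the table. Both are given as descriptions across genes measured in the same libraries. The sets are unlike, since 3346 of the 13242 genes lay below 1 TPM, whereas most of the enzymes lay above it. A rho over genes at 1 TPM or more alone was not computed. Sirt1 with 47 CpG stood at 10.7 to 13.8 TPM and Kmt2c with 56 CpG at 7.77 TPM, while Hdac8 with 4 CpG stood at 15.2 TPM. The demethylase gene Kdm4d, at 0.223 TPM, had 19 CpG.

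**Figure D2:**
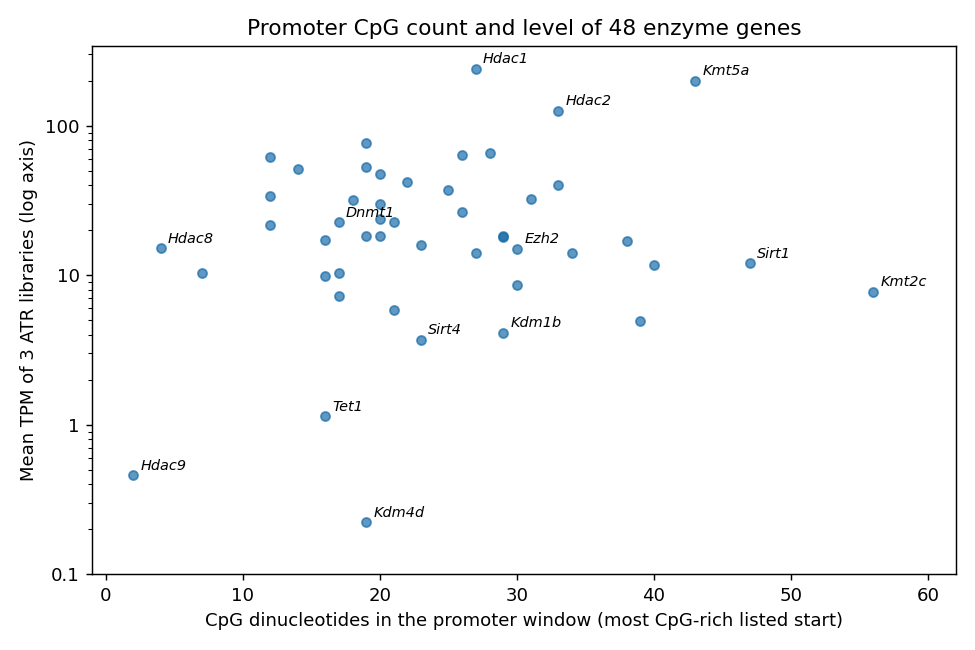
CpG dinucleotides in the RefSeq promoter window (horizontal axis) against the mean TPM of the 3 ATR libraries (vertical axis, logarithmic) for 48 enzyme genes, 1 point per gene. Hdac9 lies at 2 CpG and 0.46 TPM, but Kdm4d and Tet1 are also low with 19 and 16 CpG, and the 3 genes above 100 TPM have 27, 33 and 43.

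The sirtuins, deacylases that need NAD, were all expressed. Sirt2, the mainly cytoplasmic member, led at 78.1, 76.2 and 74.7 TPM. The mitochondrial Sirt5 followed at 47.8 ± 1.08, the chromatin enzyme Sirt6 at 33.5 ± 1.14, the mitochondrial Sirt3 at 23.8 ± 1.26 and the nucleolar Sirt7 at 18.2 ± 1.91 TPM. Sirt1, the best studied nuclear member, stood lower at 13.8, 11.6 and 10.7 TPM, and the mitochondrial Sirt4 was lowest at 3.71 ± 0.180 TPM. Sirt1 was highest in ATR 1 with 363 reads against 310 and 290, without passing the test (adjusted p = 0.0592).

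Most listed partners of the deacetylases were expressed. Of 20 corepressor genes on the list 19 were found, and 18 of them reached 1 TPM, against 71.4% of all genes. The median of those found was 36.4 TPM, against 22.2 TPM over all genes at 1 TPM or more. The scaffold Sin3b stood at 233 ± 9.55 TPM, against 24.6 ± 1.05 TPM for its relative Sin3a. The NuRD remodeller Chd4 was at 143 ± 1.78 TPM, and the nuclear receptor corepressor Ncor1 at 36.4 ± 1.18 TPM. Rcor2 had a mean of 0.137 TPM, against 27.7 ± 0.958 TPM for Rcor1, the main partner of Kdm1a in the CoREST complex.

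All 8 acetyltransferase rows exceeded 9 TPM in every library. Of the MYST family, Kat7, which acetylates H3 and H4 at replication origins, led at 37.4, 37.6 and 36.5 TPM. Kat5 (the catalytic subunit of the TIP60 complex) stood at 30.1 ± 0.616, Kat8 (the H4K16 enzyme) at 21.8 ± 1.36, Kat6a at 18.7 ± 0.968 and Kat6b at 11.7 ± 0.598 TPM. Of the GNAT family, Kat2b stood at 37.1, 32.7 and 32.0 TPM and its relative Kat2a at 28.9, 27.5 and 25.5 TPM. Kat2b exceeded Kat2a by 1.29 (1.18 to 1.41), 1.19 (1.09 to 1.30) and 1.26 (1.14 to 1.38) times, so their order held in each library. The ratio of Kat6a to Kat6b was 1.60 ± 0.00492. Kat14, a subunit of the ATAC complex, stood at 10.3 ± 0.345 TPM. Among acetyltransferase genes under other names and their partners, all 10 reached 1 TPM, against 71.4% of all genes. Ep300 stood at 24.8 ± 0.442 and its relative Crebbp at 11.8 ± 0.184 TPM.

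Ezh2 and Ezh1, the alternative catalytic subunits of the H3K27 methyltransferase complex PRC2, were expressed side by side. Ezh2 had 14.2, 13.3 and 17.5 TPM and Ezh1 9.79, 9.58 and 9.76 TPM. Ezh1 was level across the libraries while Ezh2 was higher in ATR 3, and the Ezh2 to Ezh1 ratio was 1.45 (1.25 to 1.68), 1.39 (1.20 to 1.62) and 1.80 (1.56 to 2.06). The core subunits without which the complex has no activity, Eed and Suz12, stood at 41.3 ± 0.316 and 31.7 ± 2.45 TPM, and the histone binders Rbbp7 and Rbbp4 at 287 ± 19.5 and 165 ± 5.00 TPM. All 9 partners found of 10 listed reached 1 TPM, against 71.4% of all genes.

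The KMT2 genes, which encode very large enzymes of H3K4 methylation, lay close together. Kmt2e, thought to lack enzyme activity, led at 23.1, 21.8 and 20.5 TPM and Kmt2d followed at 20.5, 19.4 and 19.1 TPM. Kmt2b stood at 14.0 ± 0.930, Kmt2a at 11.4 ± 0.0666 and Kmt2c at 8.76, 7.52 and 7.03 TPM. Of the listed core and partner genes of the COMPASS complexes, all 10 reached 10 TPM, against 50.2% of all genes. They ran from Dpy30 at 86.5 ± 3.92 TPM down to Paxip1 at 12.45 ± 0.753 TPM, which is below Kmt2e, Kmt2d and Kmt2b. Ash2l stood at 81.5 ± 2.95 and Wdr5 at 37.1 ± 1.71 TPM.

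The H4K20 enzymes were dominated by Kmt5a, which adds the first methyl group. It stood at 206, 192 and 204 TPM, the second highest level of all 61 rows, and exceeded Kmt5b, which adds further methyl groups, by 11.9 (11.0 to 12.8), 11.3 (10.5 to 12.2) and 11.6 (10.8 to 12.5) times. Kmt5c stood at 10.4 ± 0.701 TPM. Of the lysine methyltransferases under other names, 16 of 20 were found and 15 reached 1 TPM, against 71.4% of all genes. Ehmt2, the G9a enzyme of H3K9, led them at 91.7 ± 1.28 TPM.

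Kdm1a and Kdm5c had the highest levels of the demethylase rows. Kdm1a, the flavin-dependent enzyme also called LSD1, stood at 66.95, 64.4 and 65.6 TPM and exceeded its relative Kdm1b by 17.5 (14.8 to 20.9), 14.4 (12.3 to 16.9) and 15.9 (13.6 to 18.9) times. Of the KDM5 enzymes, which remove H3K4 methylation, Kdm5c had 63.6, 62.95 and 58.9 TPM, Kdm5b 53.2, 53.1 and 52.6 TPM and Kdm5a 34.1, 31.5 and 30.4 TPM. The KDM5 rows summed to 147 ± 4.59 TPM, against 74.7 ± 3.54 TPM for the 5 KMT2 rows, Kmt2e included.

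Kdm4a, an enzyme of H3K9 and H3K36, stood at 51.0 ± 2.96 TPM, with Kdm4b at 18.2 ± 0.121 and Kdm4c at 18.0 ± 0.993 TPM. Kdm2a was at 40.2 ± 1.42 and Kdm2b at 14.2 ± 1.39 TPM, and of the H3K9 enzymes Kdm3b was at 32.3 ± 1.06 and Kdm3a at 16.9 ± 0.864 TPM. Kdm6b, the inducible H3K27 demethylase, had 19.2, 17.7 and 17.97 TPM and so stood 1.13 ± 0.0541 times above Kdm6a as identified by RefSeq. The ratio's interval held 1 in ATR 1 (0.991 to 1.19) and not in ATR 2 (1.00 to 1.21) or ATR 3 (1.08 to 1.31). Kdm8 stood at 9.86 ± 1.09 and Kdm7a at 5.87 ± 0.615 TPM.

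Kdm4d was nearly absent, unlike Kdm4a, Kdm4b and Kdm4c but like Kdm4dl2, which had at most 2.3 reads. Kdm4d had 0 reads in ATR 1, 14 in ATR 2 and 0 in ATR 3, where a count of 0 allows up to 3 reads. Its total of 14 lay below the 30 reads that the test of spread required.

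Spread between the libraries was tested with a chi-square test of each gene's 3 counts against scaled library sizes, with Benjamini-Hochberg adjustment over 13309 genes with at least 30 reads and a threshold of 0.05. The test compares these libraries and no conditions. Of the 61 rows 57 were tested and 9 passed, or 15.8%, against 23.2% of all genes. The median SD of log2(CPM + 0.5), where CPM is the read count scaled to a common library size, was 0.07 over the 57 enzymes. Over all genes tested it was 0.09. The enzymes had more reads (median 2272 against 1368), which by itself lowers the counting part of this SD. The other 48 enzymes, Hdac1, Hdac3, Kmt5a, Kdm1a and Sirt2 among them, did not pass. The smallest spread belonged to Kdm5a, with 2970, 2950 and 2972 reads.

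Ezh2, Dnmt1 and Hdac2 were highest in ATR 3. Ezh2 had 346, 328 and 437 reads, so that ATR 3 exceeded ATR 1 and ATR 2 combined by a scaled ratio of 1.29 (1.14 to 1.45, adjusted p from the chi-square test 0.00149). Between ATR 1 and ATR 2 the ratio was 1.04 (0.890 to 1.21). Dnmt1 had 1163.34, 1166.52 and 1333.23 reads and a ratio of 1.14 (1.06 to 1.22, adjusted p 0.00612). For Hdac2, with 2400, 2373 and 2610 reads, the ratio was 1.09 (1.03 to 1.14, adjusted p 0.0183). Without ATR 3 none of these genes passed, at adjusted p from 0.815 to 0.943.

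Genes of proliferation were also mostly highest in ATR 3. Of 15 cell cycle genes, 14 were highest in ATR 3, against 32% of all genes. The test was passed by 13, against 23.2% of all genes. Their median log2 deviations from each gene's mean were -0.08, -0.14 and 0.22 in ATR 1, ATR 2 and ATR 3. Their summed levels were 490, 460 and 563 TPM. The list was chosen with earlier results of these data known, so these counts are a description and not an independent comparison. The proliferation marker Mki67 had 1251, 895 and 1612 reads. Uhrf1, the partner of Dnmt1, had 401, 416 and 545 reads (adjusted p = 2.157e-05) and the PRC2 subunit Rbbp7 4804, 4620 and 5385 (adjusted p = 1.83e-11). Their part in the levels of Ezh2, Dnmt1 and Hdac2 was not tested. Not all partners were highest in ATR 3: Suz12 had 1260, 1116 and 1130 reads and Phf1, an accessory PRC2 subunit, 533, 493 and 397 reads.

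**Figure D3:**
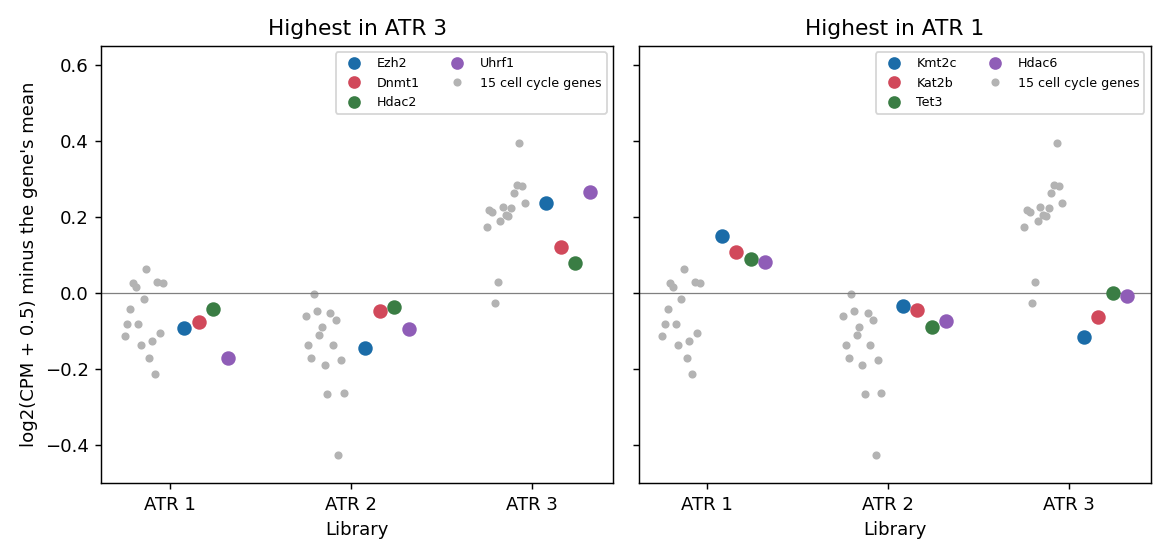
Deviation of log2(CPM + 0.5) from each gene's mean in the 3 libraries, with 15 cell cycle genes in grey and named genes in colour. Ezh2, Dnmt1, Hdac2 and Uhrf1 (left) lie above 0 in ATR 3 like 14 of the cell cycle genes, whereas Kmt2c, Kat2b, Tet3 and Hdac6 (right) lie above 0 in ATR 1.

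The promoters of Ezh2, Dnmt1 and Hdac2 are printed because E2F factors drive many genes of DNA replication. The letters searched on both strands were TTTGGCGC, TTTCGCGC and TTTCCCGC, and they are in capitals. Such a match was found in the windows of 4 of the 48 enzyme genes (8.33%): Dnmt1, Ezh2, Kdm1a and Kmt5c. It was found in 1.93% of all 27457 RefSeq genes with a promoter and in 3.81% of the genes of the table at 1 TPM or more. In Dnmt1 (GRCr8, chr8:27762792-27763091, minus strand) and Ezh2 (GRCr8, chr4:77687134-77687433, minus strand) the match lies within the 50 bases after the listed start, and the Hdac2 window (GRCr8, chr20:42102877-42103176, plus strand) holds none. The windows of Kdm4a and Dnmt3a, which also passed the test of spread and were highest in ATR 3, hold no match. Kdm1a and Kmt5c, which hold one, did not pass that test. Kdm1a was highest in ATR 3, by 0.01 on the log2 scale above its mean, and Kmt5c was highest in ATR 1. A part of E2F factors in these levels was not tested.
Dnmt1: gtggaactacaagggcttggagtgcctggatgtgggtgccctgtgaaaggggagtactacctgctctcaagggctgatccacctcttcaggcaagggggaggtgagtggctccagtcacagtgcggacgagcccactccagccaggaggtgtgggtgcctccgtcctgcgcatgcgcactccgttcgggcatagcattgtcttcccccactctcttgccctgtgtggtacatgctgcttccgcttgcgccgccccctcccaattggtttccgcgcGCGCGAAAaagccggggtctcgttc
Ezh2: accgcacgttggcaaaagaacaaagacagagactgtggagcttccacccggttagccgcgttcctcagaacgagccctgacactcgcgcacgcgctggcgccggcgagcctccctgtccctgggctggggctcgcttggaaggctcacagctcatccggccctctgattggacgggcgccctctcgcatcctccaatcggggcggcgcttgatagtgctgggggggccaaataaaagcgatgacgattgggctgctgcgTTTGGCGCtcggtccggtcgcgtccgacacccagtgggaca
Hdac2: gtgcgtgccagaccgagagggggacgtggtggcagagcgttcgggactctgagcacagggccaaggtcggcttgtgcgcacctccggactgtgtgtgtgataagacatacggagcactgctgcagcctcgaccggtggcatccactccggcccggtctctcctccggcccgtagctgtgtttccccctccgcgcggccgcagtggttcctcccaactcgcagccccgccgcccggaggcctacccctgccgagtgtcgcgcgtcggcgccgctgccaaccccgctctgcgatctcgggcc

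Commoner promoter letters were counted in the same windows. The CCAAT box (letters CCAAT, both strands) was present in 26 of the 48 genes (54.2%, against 39.6% of all RefSeq genes with a promoter). The GC box (GGGCGG) was present in 35 (72.9%, against 36.0%) and the TATA box (TATAAA) in 3 (6.25%, against 15.3%). Over the genes of the table at 1 TPM or more these shares were 39.5%, 64.9% and 7.18%. For a gene with several starts a match in any window was counted. The 3 enzymes with a TATA box, Kat6b, Kdm7a and Tet1, all have several starts.

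Kmt2c, Kat2b, Tet3 and Hdac6 were highest in ATR 1. Kmt2c, an enhancer methyltransferase, had 1333.06, 1155.11 and 1107 reads, a ratio of ATR 1 to the others of 1.17 (1.09 to 1.25, adjusted p from the chi-square test 0.000155). Kat2b had 1396, 1235 and 1237 reads with a ratio of 1.12 (1.05 to 1.20, adjusted p 0.0172), and Tet3 had 1759, 1526 and 1649 reads with a ratio of 1.10 (1.04 to 1.16, adjusted p 0.00955). Between ATR 2 and ATR 3 the ratio for Kat2b was 1.01 (0.936 to 1.10), while Tet3 was lowest in ATR 2. For Hdac6 the adjusted p was 0.0379 on its own row and 0.000659 on the summed reads. Without ATR 1 none of the 4 passed, at adjusted p from 0.295 to 0.892. Tet3 and Hdac6, both lowest in ATR 2, did not pass without ATR 2 either (chi-square test, adjusted p 0.231 and 0.243). For Hdac6 these omissions were run on the row under its own symbol and not on the summed reads.

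Most granulosa markers tested were also highest in ATR 1. Of the 6 tested, 4 were highest in ATR 1, against 33.9% of all genes. All 6 were lowest in ATR 3, against 31.4% of all genes. Inhba and Nr5a1 were highest in ATR 2, while Foxl2 had 1792, 1523 and 1389 reads. The 8 markers summed to 2971, 2696 and 2591 TPM, with Amh listed at 0 in ATR 1. Most of that sum was Gja1, at 2036, 1863 and 1821 TPM. This list, too, was chosen with earlier results of these data known. The 6 stromal markers differed more and not in 1 direction: Thy1 had 23.2, 104 and 82.7 TPM, Prrx1 12.03, 46.98 and 29.2 TPM and Pdgfra 1.36, 5.27 and 3.67 TPM, all lowest in ATR 1, while Col14a1, Ogn and Dcn were highest there. The list summed to 598, 627 and 621 TPM. All 5 surface epithelium markers tested passed the test of spread, against 23.2% of all genes. Upk3b and Lrrn4 were highest in ATR 1 and Msln in ATR 2. Krt8 and Krt18 were lowest in ATR 1 and highest in ATR 3. That list summed to 2250 TPM in ATR 1, 2090 in ATR 2 and 2171 in ATR 3. Smooth muscle markers summed to 17609, 16437 and 16279 TPM and leukocyte markers to 94.2, 119 and 117 TPM. The part of cell makeup in the levels of Kmt2c, Kat2b, Tet3 and Hdac6 was not tested.

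By reads, Kdm4a and Dnmt3a were lowest in ATR 2 and highest in ATR 3. Kdm4a had 2129, 1922 and 2152 reads, a ratio of ATR 2 to the others of 0.912 (0.864 to 0.963, adjusted p 0.019). Dnmt3a had 1986, 1794 and 1998 reads with a ratio of 0.915 (0.865 to 0.968, adjusted p 0.0351), and did not pass with library totals as the scale (adjusted p 0.0591). In TPM, Dnmt3a had 22.6, 22.1 and 23.95, where ATR 3 rather than ATR 2 stands apart. Neither gene passed without ATR 2, at adjusted p 0.872 and 0.934, and Dnmt3a did not pass without ATR 3 either (0.0501).

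**Figure D4:**
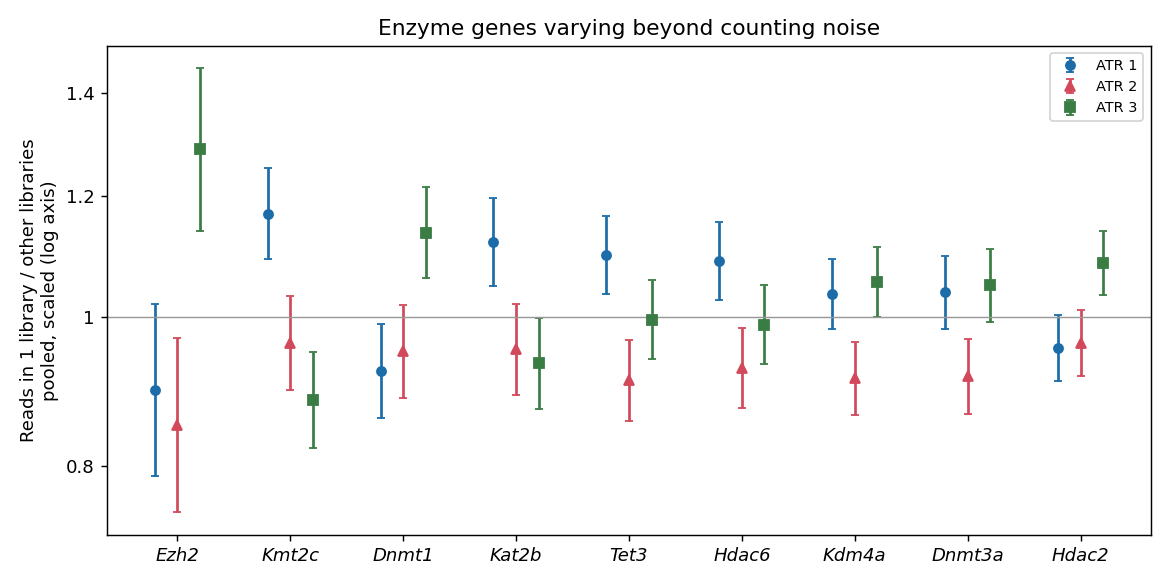
Reads in 1 library relative to the other libraries pooled, scaled for library size (vertical axis, logarithmic), for the 9 enzymes that varied beyond counting noise, with exact 95% intervals of counting error. Ezh2 in ATR 3 has the largest ratio at 1.29, Kmt2c in ATR 1 follows at 1.17, and Hdac6 is drawn from the row under its own symbol.

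The library in which an enzyme was highest depended in part on the unit. On TMM-scaled reads 25 of the 57 were highest in ATR 1, against 33.9% of all genes, and 23 were lowest in ATR 3, against 31.4% of all genes. On TPM the numbers were 36 and 31, against 43.9% and 36.8% of all genes, and the enzymes moved further than the background: in TPM 63.2% of them were highest in ATR 1 and 54.4% lowest in ATR 3. With library totals the numbers were 28 and 29, against 35.6% and 35.9% of all genes.

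For some enzymes the deposited reads and the deposited TPM gave different pictures. The reads per TPM of a gene follow the length of its transcripts, and after scaling they varied between libraries by a coefficient of variation over 1% in 10 of 51 enzymes with a mean of at least 5 TPM, against 18.8% of all such genes. Kdm5a had nearly equal reads (2970, 2950 and 2972) but 34.1, 31.5 and 30.4 TPM, with reads per TPM 5.14% below its mean in ATR 1 and 3.62% above it in ATR 3. Hdac10 had 160, 171 and 173 reads and 6.60, 7.26 and 7.95 TPM, with reads per TPM 5.62% above its mean in ATR 1. Kmt5c and Dnmt3a were also above their means in ATR 1, by 5.99% and 5.62%. Which transcripts were counted in each library was not tested.

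**Figure D5:**
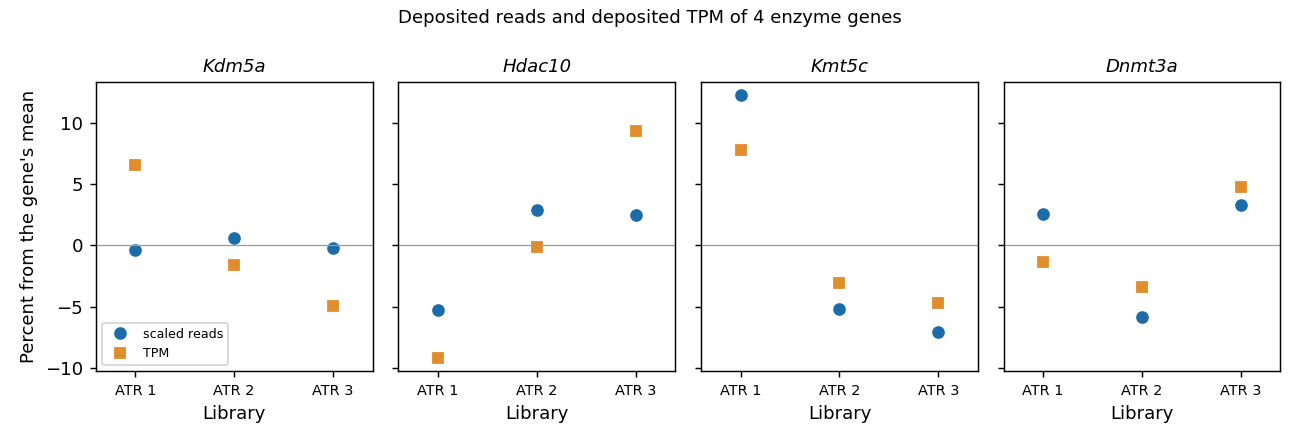
Percent deviation from the gene's mean over the 3 ATR libraries (vertical axis) for scaled reads (circles) and TPM (squares) of Kdm5a, Hdac10, Kmt5c and Dnmt3a. For Kdm5a the circles lie at the mean in every library while TPM runs from 34.1 in ATR 1 to 30.4 in ATR 3.

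Among the partner genes the counts past the test of spread, which 23.2% of all genes passed, were 3 of 9 for PRC2, 2 of 10 for DNA methylation partners and readers, 2 of 18 for deacetylase corepressors, 1 of 10 for the COMPASS core, 2 of 10 for acetyltransferases under other names, 5 of 15 for lysine methyltransferases under other names, 0 of 7 for JmjC proteins under other names and 1 of 5 for bromodomain readers. Zbtb33 (Kaiso, a reader of methylated DNA) had the widest spread of them, with 185.21, 147.59 and 21.99 reads and 5.71, 4.25 and 0.94 TPM (adjusted p = 6.97e-26). Its counts are not whole, so reads may be shared with another row. Brd2, a bromodomain reader of acetylated histones, was highest in ATR 2, with 3064.04, 3559.53 and 3150.87 reads (adjusted p = 5.63e-11).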

How the data were processed

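Poly(A) RNA of primary rat granulosa cells was sequenced as pairs of 150 bases, per the labels' protocols. The authors deposited a TPM value and an estimated count of reads per gene and library, per the file headers. For upstream steps, StringTie 2.1.5, HISAT2 2.2.1 and fastp 0.20.1 are listed in the submitters' processing notes, as are both Rnor_6.0 and the mouse build GRCm38, with no role for any. Estimated counts were rounded and scaled with TMM (edgeR 4.0.16, R 4.3.3); DESeq2 1.42.0 size factors were an alternative. Spread was tested with a chi-square test, which was tested on simulated data. Reads carry no molecular identifiers, so duplicates count as independent and intervals (exact Clopper-Pearson, 95%) cover counting error alone. Promoters come from RefSeq (GRCr8), matched by gene identifier. The planned contrast with Control was replaced by this description because the columns are those of ATR libraries. Members and lists were chosen with earlier results of these data known. Within each family the highest and lowest members, those past the test and close relatives are named. Python 3.11.15, numpy 2.4.6, pandas 2.3.3, scipy 1.17.1 and matplotlib 3.10.9 were used.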

Additional observations from a re-analysis of the deposited data

How the results depend on the processing

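No paired analysis was possible because every column analysed is from 1 group, ATR. Alternatives that need Control samples were not run. The count of enzymes at 1 TPM or more was 55, and ranged from 51 at a limit of 5 TPM to 56 with rows assigned by RefSeq identity, an alternative chosen after seeing the data. Of the enzymes tested, 9 varied beyond counting noise. Scaling by library totals gave 11 (Sirt1, Kdm5c and Kmt2b gained, Dnmt3a lost), a minimum of 10 reads gave 10 (Kdm4d gained), and rows with whole counts alone gave 6. Leaving out each library in turn gave 6 to 7, while the share of all genes was 11.9% to 17.3%. Leaving out ATR 1, ATR 2 or ATR 3 kept 5 of the 9 each time, though not the same 5. None of the 9 passed in all of these omissions, which took Hdac6 from the row under its own symbol. The median spread of 0.07 on the log2 scale was 0.08 on TPM. Depth limits genes with few reads: the interval of Dnmt3a over Dnmt3b in ATR 1 runs from 47.1 to 181.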
